A study of Gallus gallus with 30 samples.

Results

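The early response of the chicken otocyst to a loss of Notch function (Notch LOF) was examined in 6 of the 30 otocyst libraries of the series, which came from 3 of its 15 embryos and formed 1 of its 5 sets of paired otocysts. The libraries were taken by their labels. They were the right otocysts of embryos 1, 3 and 5, kept for 6 h with the γ-secretase inhibitor (GSI) LY411575 at 10 µM, and the left ones of these embryos, kept for 6 h with its solvent DMSO. All came from White Leghorn embryos (Gallus gallus) at embryonic day 2.5 (E2.5), were cleaned of the mesenchyme around them and floated freely in culture, and none had been electroporated. Every LY411575 otocyst was a right one and every DMSO otocyst a left one, so that side and treatment cannot be told apart. On embryos 3 and 5 the label ends the number of the compound in another digit, while the treatment protocol and the methods name LY411575 alone, and all were taken as 1 inhibitor. For comparison, 3 other E2.5 embryos gave right otocysts kept with LY411575 and left otocysts kept with DMSO for 24 h. In 6 further embryos the right otic cup was electroporated in ovo with NICD1, the intracellular domain of NOTCH1, and collected 6 h (E2.5) or 24 h (E3) later with the untransfected left otocyst, and in 3 a control plasmid with mRFP1 alone was used (24 h, E3).

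Notch is a receptor on the cell surface that is cut by γ-secretase once a ligand such as DLL1 or JAG2 on a neighbouring cell has bound it. The released intracellular domain enters the nucleus, joins the DNA-binding protein RBPJ and switches on genes of the HES and HEY families, whose products repress neurogenic genes. In the otic neurogenic region this lateral inhibition limits how many epithelial cells become neuroblasts, and a cell with less Notch activity makes more DLL1. γ-secretase also cuts many other membrane proteins. The unfolded protein response (UPR) is a separate system, in which sensors in the membrane of the endoplasmic reticulum (ER) raise the synthesis of ER chaperones and of the machinery that removes misfolded proteins.

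The LY411575 libraries held 12140268, 12891110 and 13367911 estimated counts and the DMSO libraries 8889267, 13189132 and 15508874, within the range of the series (8749489 to 18224622). Markers of the otic epithelium were present in all of them, with SOHO-1 at 342, 325 and 386 TPM (a transcript level scaled for length and depth) in the LY411575 otocysts of embryos 1, 3 and 5 and at 300, 285 and 326 TPM in the DMSO otocysts. SOX10 stood at 392, 343 and 435 TPM with LY411575 and at 400, 340 and 438 TPM with DMSO. Not all otic markers were so alike. DLX5, given below, was lower in every LY411575 otocyst. The 15 transcripts of the otic and sensory epithelium list had log2 fold changes between -1.37 and 1.01. Of these, 4 were higher and 3 lower with LY411575 without overlap between the groups. Mesenchymal markers were present too. The 3 transcripts of ENG, NT5E and THY1 summed to between 70.8 and 82.2 TPM with LY411575 and between 80.2 and 112 TPM with DMSO. Most of this was THY1, with means of 68.2 TPM with LY411575 and 86.5 TPM with DMSO. ENG averaged 7.48 and 7.58 TPM, and NT5E was barely detected, at 0.775 and 0.488 TPM. The 11 transcripts of muscle and fibroblast genes summed to between 591 and 663 TPM and between 558 and 606 TPM, and 0 of these 14 transcripts passed the edgeR test described next (0 at an unadjusted p below 0.05, 0 with DESeq2 and 0 with limma-voom). Of the 11, 10 were not on the study's list for these libraries, nor were the 3 mesenchymal ones, so few calls were to be expected. Among the 11, 3 were higher with LY411575 without overlap between the groups and 0 lower, against 5.95% and 5.00% of all transcripts tested. In 4 each embryo was higher with LY411575, and in 1 each was lower. In such bulk samples fewer cells of a type and less RNA per cell cannot be told apart.

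Each of 21637 transcripts was tested for a difference between the LY411575 and DMSO otocysts of the same embryos (edgeR quasi-likelihood test, with a call at a Benjamini-Hochberg adjusted p below 0.05). 17 transcripts passed, which is 0.0786% of those tested. 9 rose (0.0416%) and 8 fell (0.0370%), each in the same direction in 3 of 3 embryos, and 14 changed more than 2-fold. In 16 of the 17 the LY411575 and DMSO otocysts did not overlap in normalised counts, against 10.9% of all transcripts. The 17 were selected by the test of these same libraries, so the lack of overlap and the shared direction are no added evidence. 15 of the 17 could be named, all because the study lists them as changed in these same libraries, so that the names are no independent evidence of a direction. They were Notch effectors and a Notch ligand, genes of the ER, and a few others. The model shares 1 estimate of the spread over all 30 libraries. An unadjusted p below 0.05 was found for 576 transcripts (2.66%). DESeq2 called 132 (0.690%) and limma-voom 21 (0.0971%). When the 6 libraries were fitted alone edgeR called 0, where 1381 transcripts had an unadjusted p below 0.05 and limma-voom called 7. With the 12 cultured libraries alone 5 of the 17 were called, namely HSPA5, HSP90B1, DERL3, HES5.1 and HES5.3. Leaving out embryo 1 or embryo 3 gave 11 calls, and leaving out embryo 5 gave 9.

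Of the Notch pathway transcripts that fell, those of the 3 HES5 genes fell furthest. They encode repressors of neurogenesis that are direct targets of the Notch intracellular domain. HES5.1 (ENSGALT00000001715.5) stood at 0.204, 0 and 0.0949 TPM in the LY411575 otocysts of embryos 1, 3 and 5 and at 104, 70.6 and 49.4 TPM in the DMSO otocysts. The 3 LY411575 libraries held 3 counts of it in all, against 2125 with DMSO, a ratio of normalised counts 717-fold lower (95% interval 245 to 3480, exact binomial, for counting error only; adjusted p = 0.000222). HES5.2 (ENSGALT00000042752.3) stood at 0.220, 0 and 0.0968 TPM with LY411575 and at 12.9, 15.2 and 8.54 TPM with DMSO. It too was left with 3 counts, against 355, a ratio 120-fold lower (40.7 to 584; adjusted p = 0.000795). HES5.3 (ENSGALT00000035200.5), the most abundant of the family with DMSO, kept a low level in every LY411575 otocyst, with 1.85, 2.37 and 2.89 TPM, against 177, 161 and 115 TPM with DMSO (log2 fold change -5.97 ± 0.47, SE; adjusted p = 8.86e-05). In each of these genes every LY411575 otocyst lay far below every DMSO otocyst, and with DMSO embryo 5 was the lowest. Reads of HES5.1, HES5.2 and HES5.3 had been split with another transcript in 3, 4 and 4 of the 6 libraries. The intervals given for HES5.1 and HES5.2 leave out the error of that split. With limma-voom HES5.3 was called, while HES5.1 and HES5.2 kept the direction with adjusted p of 0.606 and 0.547.

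HES4 (ENSGALT00000085574.2), another repressor of the family, stood at 25.6, 28.9 and 30.2 TPM with LY411575 and at 80.7, 68.5 and 62.8 TPM with DMSO, and fell by 1.33 on the log2 scale (± 0.20, SE; adjusted p = 0.0252). The groups did not overlap. The call was lost without any 1 embryo, at adjusted p of 0.318, 0.194 and 0.0843 without embryos 1, 3 and 5, and without the embryo as a term (0.992). HEY1, a related repressor with an adjusted p of 0.293, stood at 26.6, 28.6 and 40.0 TPM with LY411575 and at 253, 232 and 136 TPM with DMSO, a log2 fold change of -2.69 ± 0.56 (SE), and DESeq2 and limma-voom called it (adjusted p = 5.54e-05 and 0.0118). HES1 was also lower in every LY411575 otocyst, with 33.7, 26.8 and 38.8 TPM against 59.8, 51.0 and 54.8 TPM with DMSO, but did not pass (-0.76 ± 0.32). NRARP, a target that dampens the Notch complex, overlapped between the groups, with 65.8, 34.2 and 82.1 TPM with LY411575 and 80.2, 53.3 and 66.5 TPM with DMSO (-0.22 ± 0.43). RBPJ itself stood at 7.62, 7.81 and 9.59 TPM with LY411575 and at 3.72, 5.88 and 5.47 TPM with DMSO (0.75 ± 0.32, adjusted p = 1.0). Of the 8 nuclear effectors and targets tested (of 15 symbols on the list), 4 fell and 0 rose, against 0.0370% and 0.0416% of all transcripts. The groups did not overlap in 6 that were lower and 1 that was higher with LY411575, against 5.00% and 5.95% of all transcripts. 7 of the 8 are on the study's own list for these libraries.

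**Figure D1:**
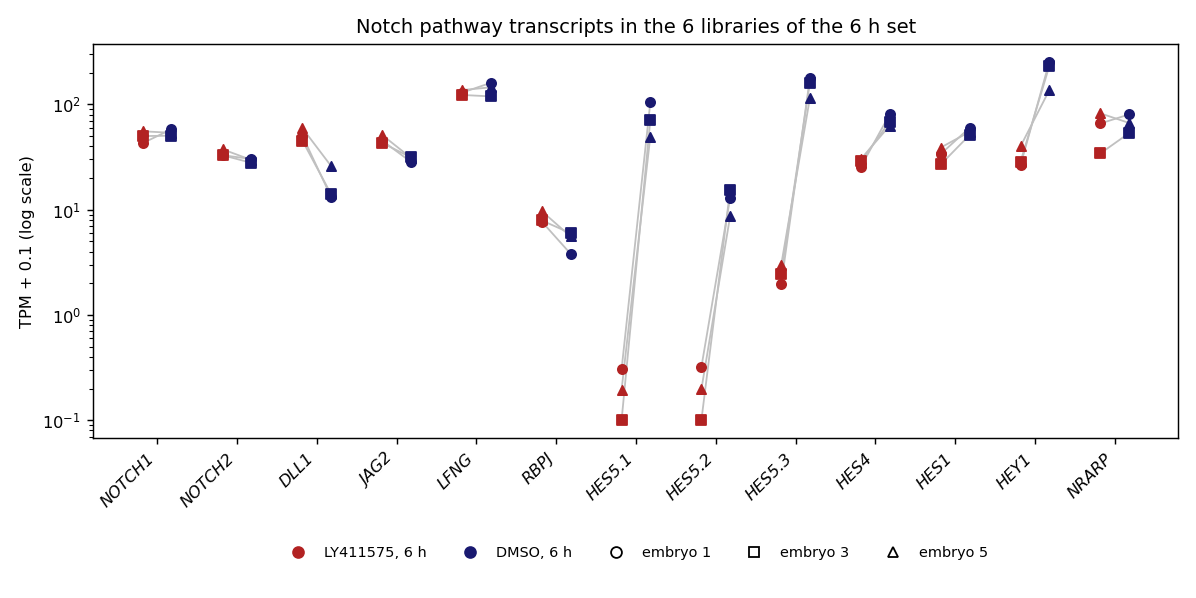
TPM plus 0.1 on a log axis for 13 Notch pathway transcripts in the LY411575 otocysts (red, left) and the DMSO otocysts (dark blue, right) of the 6 h set, with a line joining the otocysts of 1 embryo and a symbol for each embryo. The 3 HES5 transcripts, HES4, HES1 and HEY1 lie lower and DLL1, JAG2, RBPJ and NOTCH2 higher in every LY411575 otocyst, while NOTCH1, LFNG and NRARP overlap.

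On the ligand side, DLL1 (ENSGALT00000037704.4) rose. It stood at 50.3, 45.3 and 59.5 TPM in the LY411575 otocysts and at 13.1, 13.9 and 25.9 TPM in the DMSO otocysts, which is 1.60 ± 0.24 higher on the log2 scale (SE; adjusted p = 0.0246). The lowest LY411575 value lay above the highest DMSO value. The call was lost without any 1 embryo, at adjusted p of 0.413, 0.316 and 0.0843 without embryos 1, 3 and 5. JAG2, a second ligand, stood at 45.3, 43.0 and 51.1 TPM with LY411575 and at 28.3, 31.3 and 31.0 TPM with DMSO, again without overlap, and did not pass (0.62 ± 0.26). The receptor NOTCH1 stood at 42.7, 49.9 and 55.5 TPM with LY411575 and at 58.1, 50.4 and 53.6 TPM with DMSO (-0.14 ± 0.18). The receptor NOTCH2 stood at 32.8, 32.9 and 37.4 TPM with LY411575 and at 30.2, 27.8 and 29.6 TPM with DMSO (0.23 ± 0.21). LFNG, a glycosyltransferase that modifies the receptors, stood at 129, 123 and 137 TPM with LY411575 and at 160, 119 and 145 TPM with DMSO. NOTCH1 and LFNG overlapped between the groups and NOTCH2 did not. Of these 5 transcripts, which stand for 5 of the 11 symbols on the list, 1 rose and 0 fell, against 0.0416% and 0.0370% of all transcripts. The groups did not overlap in 3 that were higher and 0 that were lower with LY411575, against 5.95% and 5.00% of all transcripts.

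Among the 9 transcripts that rose, those of 3 genes of the ER had the largest fold changes. HSPA5 (ENSGALT00000001476.4), the chaperone BiP that also holds the UPR sensors inactive, stood at 1216, 966 and 927 TPM in the LY411575 otocysts and at 243, 228 and 229 TPM in the DMSO otocysts (log2 fold change 2.13 ± 0.14, SE; adjusted p = 5.38e-05). HSP90B1 (ENSGALT00000081140.2), the ER form of HSP90, stood at 967, 816 and 1115 TPM with LY411575 and at 249, 260 and 268 TPM with DMSO (1.88 ± 0.14; adjusted p = 6.62e-05). DERL3 (ENSGALT00000038506.3), a derlin that helps to export misfolded proteins for degradation, stood at 49.4, 45.6 and 55.9 TPM with LY411575 and at 11.0, 10.9 and 14.7 TPM with DMSO (2.05 ± 0.16; adjusted p = 8.66e-05). In these 3 genes the lowest LY411575 otocyst was above 3 times the highest DMSO otocyst.

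Another 3 ER genes rose by less. FICD (ENSGALT00000007760.6), an enzyme that modifies BiP and so sets its activity, stood at 17.2, 16.0 and 15.5 TPM with LY411575 and at 8.50, 7.59 and 6.92 TPM with DMSO (log2 fold change 1.08 ± 0.15, SE; adjusted p = 0.0164). HYOU1 (ENSGALT00000060264.2), which exchanges the nucleotide of BiP, stood at 118, 110 and 117 TPM with LY411575 and at 54.8, 76.6 and 62.8 TPM with DMSO (0.84 ± 0.13; adjusted p = 0.0252). SDF2L1 (ENSGALT00000087167.2), a partner of ER chaperones, stood at 48.7, 49.2 and 50.5 TPM with LY411575 and at 28.6, 30.3 and 28.4 TPM with DMSO (0.76 ± 0.09; adjusted p = 0.0033). None of the 3 overlapped between the groups. The FICD call was lost without any 1 embryo, at adjusted p between 0.17 and 0.246. The HYOU1 call was lost without embryo 1 (0.532) and without embryo 5 (0.429). The SDF2L1 call was lost without embryo 1 (0.066), without embryo 5 (0.0796) and without the embryo as a term (0.566).

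Of the 20 transcripts of the UPR list (20 of its 31 symbols could be matched), 6 rose and 0 fell, against 0.0416% and 0.0370% of all transcripts. The median log2 fold change was 0.60, beside a median of 0 over all transcripts. In 17 of the 20 every LY411575 otocyst was above every DMSO otocyst, and in 19 each embryo gave a higher value with LY411575, against 5.95% and 14.9% of all transcripts. 18 of the 20 stand on the study's own list for these libraries, so these counts are no independent evidence. 17 had an unadjusted p below 0.05, against 2.66% of all transcripts. DESeq2 called 13 and limma-voom 6, against 0.690% and 0.0971%. Of the 2 named for other samples, EDEM3, which trims sugars of misfolded proteins, stood at 20.8, 21.6 and 23.8 TPM with LY411575 and at 16.9, 19.0 and 18.1 TPM with DMSO. TXNDC5, a disulphide isomerase, stood at 156, 157 and 136 TPM with LY411575 and at 162, 152 and 128 TPM with DMSO. EDEM3 did not overlap between the groups and TXNDC5 did. The transcription factor XBP1, an effector of the UPR, stood at 149, 151 and 163 TPM with LY411575 and at 87.1, 83.1 and 82.0 TPM with DMSO (0.87 ± 0.24, adjusted p = 0.938). The disulphide isomerase PDIA4 stood at 323, 334 and 386 TPM with LY411575 and at 212, 244 and 230 TPM with DMSO (0.60 ± 0.12, adjusted p = 0.285). A second isomerase, PDIA6, stood at 407, 386 and 438 TPM with LY411575 and at 300, 322 and 332 TPM with DMSO (0.36 ± 0.11). In XBP1, PDIA4 and PDIA6 every LY411575 otocyst was above every DMSO otocyst. The heat shock gene HSPA8, which acts in the cytosol, stood at 528, 488 and 534 TPM with LY411575 and at 616, 585 and 566 TPM with DMSO (-0.19 ± 0.18), and of the 10 transcripts of heat shock and immediate early genes 0 passed with edgeR, DESeq2 or limma-voom (1 at an unadjusted p below 0.05). Unlike the UPR list, 7 of these 10 were named only from the study's lists for other samples, so few calls were to be expected.

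**Figure D2:**
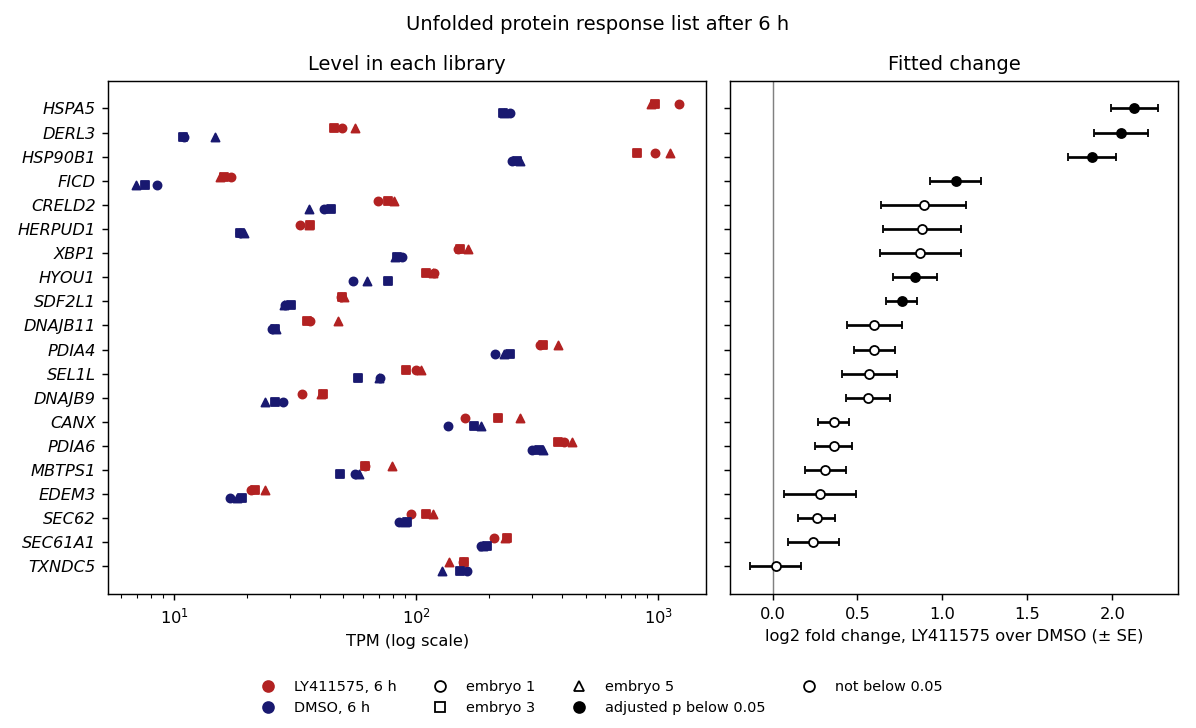
Left, TPM on a log axis for the 20 transcripts of the UPR list in each LY411575 otocyst (red, upper row of each gene) and each DMSO otocyst (dark blue, lower row) of the 6 h set. Right, the fitted log2 fold change with its SE, filled where the adjusted p is below 0.05, with 6 filled points that run between 0.76 and 2.13.

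Of the ER genes that rose, all but FICD had their lowest group mean of the series in the DMSO otocysts of the 6 h set. FICD averaged 7.67 TPM there, within the range of the other 8 groups (6.57 to 26.1 TPM). HSPA5 averaged 1036 ± 157 TPM in the LY411575 otocysts and 234 ± 8.58 TPM in the DMSO otocysts (SD, n = 3 each), while the other 8 group means lay between 273 and 797 TPM. For HSP90B1 the LY411575 mean of 966 TPM was close to the highest of the other 8 groups (949 TPM) and the DMSO mean of 259 TPM was below the lowest of them (555 TPM). DERL3 averaged 50.3 TPM with LY411575, above the other 8 groups (19.4 to 38.5 TPM), and 12.2 TPM with DMSO, below them. Over the UPR list the DMSO group of the 6 h set had the lowest of the 10 group means in 11 of 20 transcripts and the LY411575 group the highest in 9. The share over all transcripts was not counted, and 18 of the 20 were chosen by the study in these libraries. Among 14 semaphorin and axon guidance transcripts the LY411575 group was highest in 9 and the DMSO group lowest in 0. Among 19 Wnt transcripts the DMSO group was highest in 6 and lowest in 1. The other groups came from other embryos, times and experiments, which cannot be told apart here.

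**Figure D3:**
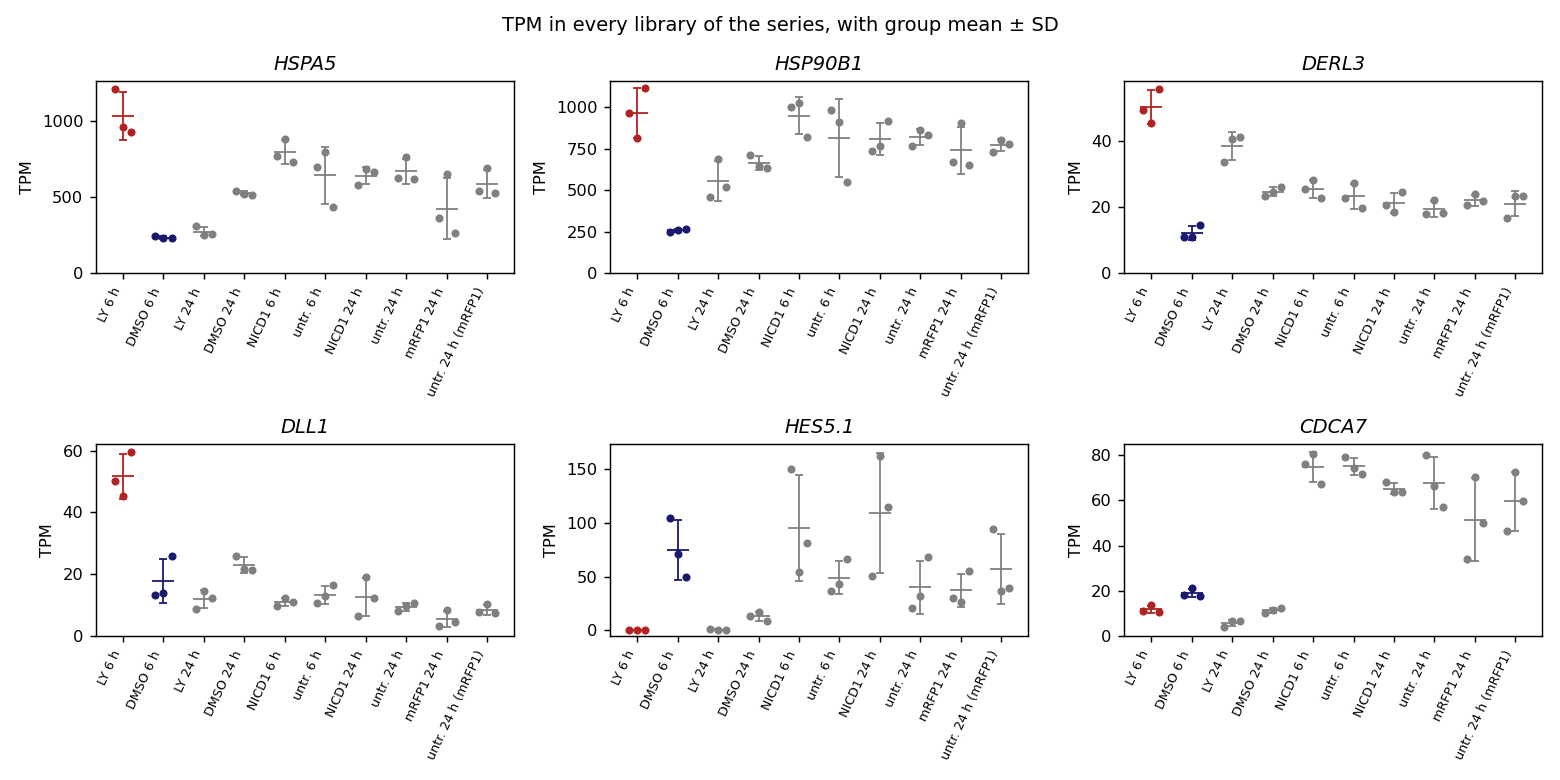
TPM of 6 transcripts in each of the 30 libraries (points) with the mean ± SD of each group of 3, the LY411575 otocysts of the 6 h set in red, their DMSO otocysts in dark blue and the other 8 groups in grey ("untr." is the untransfected left otocyst). HSPA5, HSP90B1 and DERL3 are lowest in the DMSO otocysts of the 6 h set, DLL1 is highest in its LY411575 otocysts, and CDCA7 is lower in both cultured sets than in the in ovo sets.

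Other genes that rose or fell included GADD45G, a gene tied to cell cycle exit and stress. Its transcript ENSGALT00000094271.1 stood at 110, 56.4 and 161 TPM with LY411575 and at 42.1, 18.2 and 63.9 TPM with DMSO, and rose by 1.44 ± 0.14 on the log2 scale (SE; adjusted p = 0.000758). Here the groups overlapped, with embryo 3 low in both otocysts, while each embryo was higher with LY411575. Without the embryo as a term the adjusted p was 1.0. The second transcript, ENSGALT00000045592.3, lay just outside the threshold, with 287, 141 and 397 TPM with LY411575 and 128, 52.6 and 179 TPM with DMSO (1.23 ± 0.21, adjusted p = 0.073). Summed, the gene stood at 396, 198 and 558 TPM with LY411575 and at 171, 70.9 and 243 TPM with DMSO.

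CDCA7 (ENSGALT00000085064.2), a gene induced by E2F and MYC factors as cells enter the S phase, stood at 11.0, 13.6 and 10.5 TPM with LY411575 and at 18.1, 21.1 and 17.7 TPM with DMSO, and fell by 0.70 on the log2 scale (± 0.10, SE; adjusted p = 0.0164). Its groups did not overlap. The call was lost without any 1 embryo, at adjusted p between 0.166 and 0.214, without the embryo as a term (1.0) and with limma-voom (0.128). PAK1, a kinase downstream of RAC and CDC42, fell in 1 transcript, ENSGALT00000102219.1, with 10.1, 13.1 and 8.66 TPM with LY411575 and 27.8, 36.3 and 29.9 TPM with DMSO (-1.58 ± 0.22, adjusted p = 0.0149). This call too was lost without any 1 embryo, at adjusted p of 0.0881, 0.123 and 0.176 without embryos 1, 3 and 5. Its other named transcript did not pass (-0.72 ± 0.23), and their sum was 56.0, 61.2 and 62.0 TPM with LY411575 against 114, 128 and 96.2 TPM with DMSO.

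A transcript of BZW2 (ENSGALT00000062281.2), which encodes a regulator of translation, held 0 counts in the LY411575 otocysts and 973 in the DMSO otocysts, at least 328-fold lower against a floor of 3 counts over the group (adjusted p = 0.0164). Its DMSO values, at 5.38, 29.4 and 62.5 TPM, were far apart, and it was also at 0 TPM in all 3 DMSO otocysts of the 24 h set. The call was lost with limma-voom (adjusted p = 0.627), without embryo 3 (0.107) and without embryo 5 (0.143). The unnamed transcript ENSGALT00000087079.2 held 0 counts with LY411575 and 97 with DMSO, at least 32.7-fold lower (adjusted p = 0.000352), with 1.25, 0.449 and 4.02 TPM in the DMSO otocysts, and was not called with limma-voom (adjusted p = 0.359). In both, all LY411575 libraries were at 0, and only these transcripts of their genes were followed. ENSGALT00000061619.2, also unnamed, stood at 96.5, 148 and 106 TPM with LY411575 and at 42.3, 57.4 and 65.5 TPM with DMSO, and rose by 1.08 ± 0.13 (adjusted p = 0.00518), a call lost without embryo 1 (0.1) and without embryo 3 (0.113). In 12 of the 17, kallisto had split reads with another transcript in 1 or more of the 6 libraries. The share over all transcripts was 67.7%. Which transcript shared the reads was not followed, and it may belong to the same gene or to a related one, such as another HES5 gene. For these 12 a switch of isoform, a shift of reads between related genes and a change of the whole gene cannot be told apart.

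Just outside the threshold lay, besides GADD45G, the E protein TCF12, which pairs with neurogenic bHLH factors. It stood at 554, 536 and 651 TPM with LY411575 and at 416, 364 and 348 TPM with DMSO (log2 fold change 0.62 ± 0.11, SE; adjusted p = 0.0886). ORC1, a subunit of the origin recognition complex, stood at 14.8, 19.6 and 14.3 TPM with LY411575 and at 24.3, 24.4 and 20.4 TPM with DMSO (-0.52 ± 0.10, adjusted p = 0.124). The other 2 were the unnamed ENSGALT00000091333.1 (1.60 ± 0.28, adjusted p = 0.0944) and ENSGALT00000081182.2 (-4.29 ± 0.77, adjusted p = 0.102).

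Among neurogenic bHLH factors and their partners 0 of 12 transcripts passed with edgeR, where 6 had an unadjusted p below 0.05, while DESeq2 called 3 and limma-voom 1. Over all transcripts the shares were 2.66% at an unadjusted p below 0.05, 0.690% with DESeq2 and 0.0971% with limma-voom. NEUROD1, a factor of delaminating otic neuroblasts, stood at 271, 212 and 241 TPM with LY411575 and at 97.6, 136 and 127 TPM with DMSO, without overlap (1.00 ± 0.50 on the log2 scale, SE; adjusted p = 1.0). ID2, which titrates E proteins, stood at 80.3, 166 and 74.6 TPM with LY411575 and at 165, 301 and 167 TPM with DMSO, and each embryo was lower with LY411575 (-1.03 ± 0.25, adjusted p = 0.663). The E protein TCF3 stood at 250, 221 and 280 TPM with LY411575 and at 210, 186 and 227 TPM with DMSO (0.26 ± 0.17). Of 23 transcripts of neuronal differentiation genes 1 rose, the GADD45G transcript above, and 0 fell, against 0.0416% and 0.0370% of all transcripts. In 13 each embryo was higher with LY411575, against 14.9% of all transcripts. An unadjusted p below 0.05 was found for 9, and DESeq2 called 6 and limma-voom 2, against the shares over all transcripts given above. 12 of these 13 are on the study's list for these libraries. In 2 of the 23 each embryo was lower with LY411575, against 13.9% of all transcripts. 1 of these, RTN1, had the lowest log2 fold change of the list (-1.87 ± 0.39, adjusted p = 0.295) and is also on the study's list. It stood at 2.32, 0.951 and 1.39 TPM with LY411575 and at 7.39, 5.54 and 3.76 TPM with DMSO, without overlap. SIM1 had the highest log2 fold change of the list (2.24 ± 0.72). Its levels were 3.61, 3.97 and 4.44 TPM with LY411575 and 0.532, 0.941 and 1.16 TPM with DMSO. PENK stood at 97.8, 114 and 135 TPM with LY411575 and at 21.7, 22.5 and 34.7 TPM with DMSO (2.15 ± 0.43, adjusted p = 0.235). SIM1 and PENK were higher without overlap, did not pass and are on the study's list. The abundant STMN1 transcript ENSGALT00000087509.2, of a microtubule regulator of young neurons, overlapped between the groups (-0.02 ± 0.14), as did the tubulin TUBB2B (-0.04 ± 0.18) and SOX11 (0.27 ± 0.39). SOX4 stood at 642, 458 and 670 TPM with LY411575 and at 353, 339 and 402 TPM with DMSO (0.67 ± 0.38).

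DNA replication and G1/S genes were mostly lower in small steps. 1 of 22 transcripts fell, CDCA7, and 0 rose, against 0.0370% and 0.0416% of all transcripts, with a list median of -0.44. In 21 of the 22 each embryo was lower with LY411575, and in 14 the groups did not overlap, against 13.9% and 5.00% of all transcripts. 20 of the 22 had been chosen by the study in these libraries. 17 had an unadjusted p below 0.05, against 2.66% of all transcripts. DESeq2 called 12 and limma-voom 0, against 0.690% and 0.0971%. Of the 2 named for other samples, UHRF1 stood at 78.4, 94.7 and 81.8 TPM with LY411575 and at 91.2, 101 and 81.9 TPM with DMSO. TICRR stood at 36.4, 29.9 and 32.4 TPM with LY411575 and at 33.4, 32.3 and 33.2 TPM with DMSO. Both overlapped between the groups. PCNA, the sliding clamp of DNA polymerase, stood at 342, 424 and 300 TPM with LY411575 and at 381, 500 and 362 TPM with DMSO (-0.23 ± 0.14). RRM2, a subunit of ribonucleotide reductase, stood at 140, 130 and 140 TPM with LY411575 and at 186, 194 and 177 TPM with DMSO (-0.45 ± 0.15). RRM2 did not overlap between the groups and PCNA did. The differences of TYMS (-0.26 ± 0.14) and RPA3 (-0.26 ± 0.19) were near that of PCNA. Of 10 mitotic transcripts 0 passed with edgeR, DESeq2 or limma-voom (1 at an unadjusted p below 0.05), with a median of 0.03, and CDK1 stood at 560, 416 and 537 TPM with LY411575 and at 494, 464 and 496 TPM with DMSO. Of the 10 mitotic transcripts, 8 were named only from the study's lists for other samples. The mitotic and replication lists thus differ in how their members were named, and the difference between these lists was not tested.

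With edgeR no transcript passed in the lists of FGF, Wnt and BMP signalling, of semaphorins and axon guidance, of otic and sensory epithelium, or of glycolysis and hypoxia. Unadjusted p-values below 0.05 numbered 4, 3, 4, 5, 4 and 0 in that order of lists, DESeq2 called 0, 1, 1, 1, 2 and 0, and limma-voom called 0 in each. Over all transcripts the shares were 2.66%, 0.690% and 0.0971%. The BMP list had a median of -0.63, with 7 of 12 transcripts lower without overlap, against 5.00% of all transcripts, all 7 of them chosen by the study in these libraries. DLX5, a homeobox gene of the dorsal otocyst, stood at 81.9, 62.9 and 83.5 TPM with LY411575 and at 131, 106 and 114 TPM with DMSO (log2 fold change -0.63 ± 0.27, SE). MSX1 stood at 246, 194 and 227 TPM with LY411575 and at 412, 194 and 245 TPM with DMSO (-0.29 ± 0.48). Of 14 semaphorin and axon guidance transcripts 7 were higher without overlap, against 5.95% of all transcripts, all chosen by the study in these libraries, with a median of 0.44. SEMA5B stood at 118, 113 and 141 TPM with LY411575 and at 95.0, 85.8 and 95.2 TPM with DMSO (0.42 ± 0.18). BOC, a guidance receptor, stood at 114, 99.6 and 130 TPM with LY411575 and at 66.0, 57.9 and 79.6 TPM with DMSO (0.76 ± 0.25). In both genes every LY411575 otocyst was above every DMSO otocyst. In the FGF list FGF10 stood at 29.7, 37.2 and 40.2 TPM with LY411575 and at 84.8, 66.2 and 75.3 TPM with DMSO (-1.09 ± 0.36), lower in every LY411575 otocyst. FGF3 stood at 32.1, 25.6 and 23.7 TPM with LY411575 and at 10.7, 13.2 and 13.8 TPM with DMSO (1.08 ± 0.45), higher in every LY411575 otocyst. The medians were -0.28 for the 7 FGF, -0.01 for the 19 Wnt, 0.13 for the 15 otic and -0.12 for the 8 glycolysis and hypoxia transcripts. Higher without overlap were 2, 4, 4 and 0 in that order, against 5.95% of all transcripts. Lower without overlap were 3, 3, 3 and 2, against 5.00%. Of these, 2, 4, 3 and 0 of the higher and 3, 3, 2 and 1 of the lower had been chosen by the study in these libraries.

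**Figure D4:**
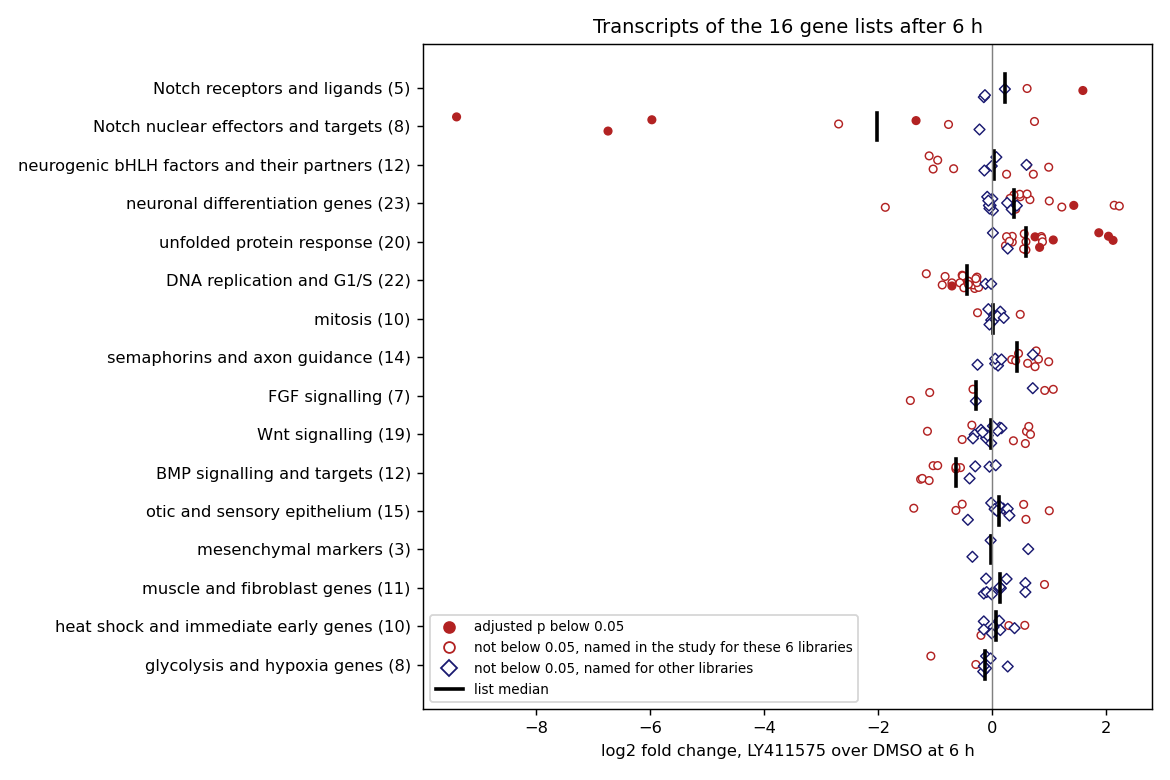
Log2 fold change, LY411575 over DMSO at 6 h, of every tested transcript of the 16 gene lists, with the number of transcripts in brackets and the list median as a bar. Filled points have an adjusted p below 0.05, circles were named from the study's list for these 6 libraries and diamonds from its lists for other libraries. The filled points are in the Notch, neuronal differentiation, UPR and DNA replication lists, with the UPR median at 0.60 and the DNA replication median at -0.44.

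The 17 transcripts were then followed in the other sets. After 24 h of LY411575, 9 of them passed the test, against 3.40% of all transcripts. The 4 HES genes were lower at both times, with log2 fold changes at 24 h of -4.30 ± 0.64 (SE) for HES5.1, -3.58 ± 0.54 for HES5.2, -3.77 ± 0.49 for HES5.3 and -1.07 ± 0.20 for HES4 (adjusted p between 0.00485 and 0.0189). Their level in the 24 h DMSO otocysts was lower, with HES5.1 at 13.7, 17.2 and 8.39 TPM there. CDCA7 fell at both times (-0.90 ± 0.10 at 24 h, adjusted p = 0.00302), and DERL3 (0.75 ± 0.15, adjusted p = 0.0228) and FICD (0.71 ± 0.15, adjusted p = 0.027) rose at both. HSPA5 had opposite signs, at 307, 251 and 260 TPM in the 24 h LY411575 otocysts and at 544, 523 and 514 TPM in the 24 h DMSO otocysts (-0.84 ± 0.14, adjusted p = 0.0102). The PAK1 transcript also had opposite signs (0.98 ± 0.21 at 24 h, adjusted p = 0.0301). DLL1 stood at 8.83, 14.6 and 12.2 TPM with LY411575 and at 25.8, 21.5 and 21.4 TPM with DMSO at 24 h (-0.85 ± 0.24, adjusted p = 0.0723).

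The difference between the response at 6 h and the response at 24 h was tested in the same model, and 24 transcripts passed (0.111%). 7 of the 17 were among them, namely HSPA5 (a log2 difference of 2.97 with an SE of 0.20 and an adjusted p of 5.09e-05), HSP90B1 (2.04 ± 0.19, adjusted p = 0.000789), DLL1 (2.45 ± 0.34, adjusted p = 0.0157), GADD45G (1.50 ± 0.20, adjusted p = 0.0147), DERL3 (1.30 ± 0.22, adjusted p = 0.049), PAK1 (-2.55 ± 0.31, adjusted p = 0.00613) and ENSGALT00000087079.2. For the HES5 genes it did not pass, at adjusted p of 0.146 for HES5.1, 0.230 for HES5.2 and 0.273 for HES5.3. With 1 embryo of the 6 h set left out, 8 to 10 transcripts passed in place of 24. HSPA5, HSP90B1, PAK1 and ENSGALT00000087079.2 passed in each of these fits, DLL1 in 1 of them (adjusted p = 0.11 without embryo 1 and 0.0851 without embryo 3), and GADD45G (0.0649 to 0.0946) and DERL3 (0.148 to 0.182) in 0. The DMSO otocysts of the times also differ in culture length, stage and embryos, so that a change of the control level and a change of the response cannot be told apart.

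In the NICD1 sets 0 of the 17 passed the test, and 0 of all transcripts did (0.00%), with 855 at 6 h and 577 at 24 h at an unadjusted p below 0.05. HES5.2 stood at 60.0 ± 33.4 TPM in NICD1 otocysts and at 21.3 ± 6.20 TPM in their untransfected partners at 6 h (SD, n = 3 each; log2 fold change 1.42, adjusted p = 1.0). At 24 h it stood at 76.1 ± 48.6 TPM in NICD1 otocysts and at 16.5 ± 6.21 TPM in untransfected ones (2.14 ± 0.45, adjusted p = 0.845). HES5.2 was higher with NICD1 in 3 of 3 embryos at both times, with unadjusted edgeR p of 0.00765 at 6 h and 0.000399 at 24 h. The study, with another test, reported changed genes in both NICD1 sets, among them HES5.2 as increased at 24 h. Of the 8 transcripts that fell after 6 h of LY411575, 5 were higher with NICD1 at 6 h and 7 at 24 h, and of the 9 that rose, 2 were lower with NICD1 at 6 h and 4 at 24 h. With mRFP1 alone, 2 of the same 8 were higher and 3 of the same 9 lower. The shares of all transcripts higher or lower in these sets were not counted. Over all transcripts the median log2 fold change with NICD1 was -0.0173 at 6 h and -0.0155 at 24 h. A mirrored response was not tested.

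**Figure D5:**
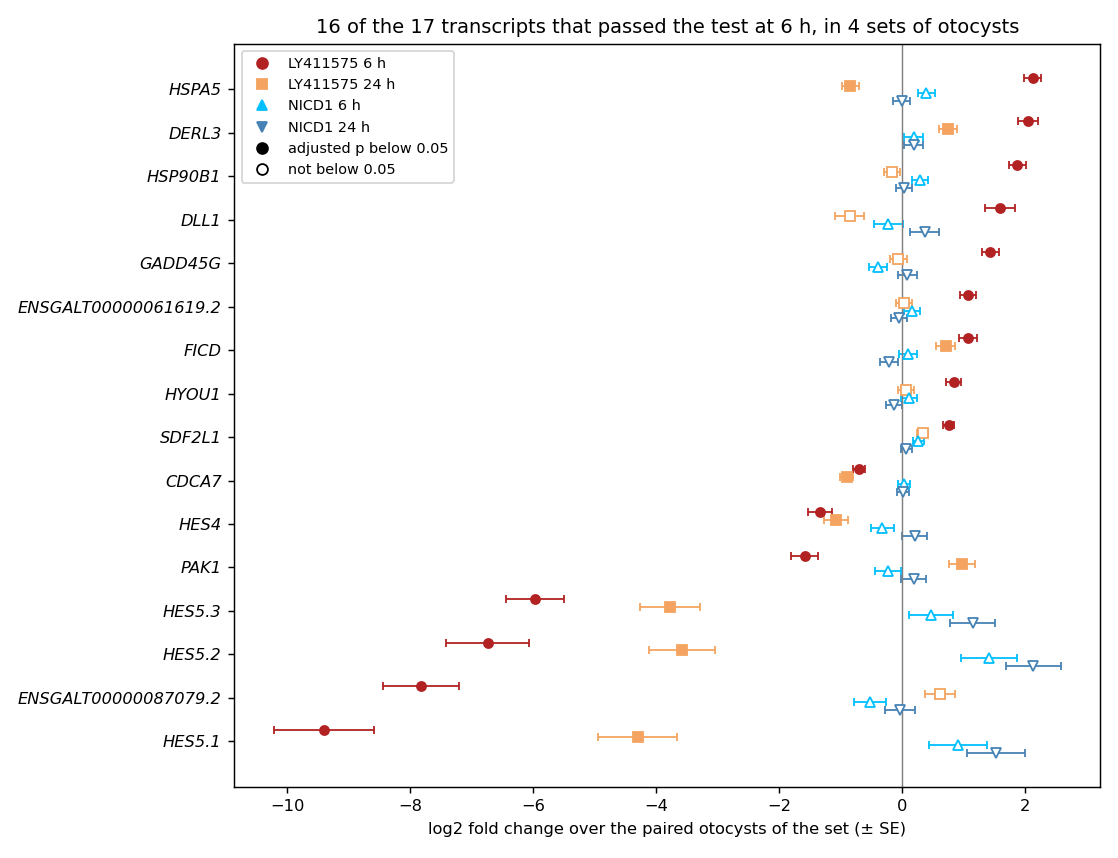
Log2 fold change with SE of 16 of the 17 transcripts called after 6 h of LY411575, in the LY411575 sets of 6 h and 24 h and the NICD1 sets of 6 h and 24 h, each over the paired otocysts of its set, with filled symbols where the adjusted p is below 0.05. BZW2 is left out because both 24 h groups were at or near 0. The HES genes and CDCA7 lie below 0 in both LY411575 sets, HSPA5 and PAK1 are filled on opposite sides of 0 in them, and no NICD1 point is filled.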

How the data were processed

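Total RNA of each single otocyst was made into libraries with the SMART-Seq v4 kit and Nextera XT and sequenced as paired ends, per the methods. The kit does not mark strand. Per the submitters' processing notes, reads went through bcl2fastq and kallisto on build GRCg6a. A version of kallisto is not given in these sources. For every otocyst the authors deposited a kallisto table with estimated counts (not normalised, not always whole) and TPM values scaled by kallisto for effective length and depth, for 28756 transcripts.

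Estimated counts were rounded, filtered (edgeR 4.0.16 in R 4.3.3, filterByExpr with a minimum count of 10 over the 10 groups, 21637 kept), scaled by TMM and fitted over all 30 libraries by edgeR's quasi-likelihood model with 1 term per embryo and 1 per treatment (10 residual degrees of freedom). Benjamini-Hochberg adjustment ran over all transcripts tested. TPM served for levels. Totals of 8889267 to 15508874 counts in the 6 libraries and n = 3 set the precision. The script was tested on simulated counts with less spread than the data and no difference between embryos. That run checks the code and not the power or error rate in these data. The tests of DESeq2 1.42.0 and limma 3.58.1 and the other alternatives are given in the closing section.

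The term per embryo reflects the pairing, since titles and methods give each right otocyst a left one of its own embryo. After removal of the group means, such partners correlated across transcripts at r of 0.0929, 0.212 and 0.150 in embryos 1, 3 and 5, and at most at 0.0108 with another embryo. Removal of the group means itself pushes the values with other embryos down, so these are no separate evidence of the pairing. No libraries of a group agreed within sampling noise.

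The files carry Ensembl transcript identifiers only. Symbols were taken from the study's supplementary lists (844 identifiers, 271 of them listed for these 6 libraries), of which no other column was read. The names of the HES5 genes came from its figure of identifiers shared between 6 h and 24 h of LY411575. CDCA7 and TYMS carry the symbol of the human homologue. ENG, NT5E and THY1 were matched without the version number. A symbol covers only the transcripts so named. Named are every called transcript and the next 5 by p, every tested transcript of the 2 Notch lists, and of the other 14 lists the 4 with the highest mean TPM, 81 in all, the rest of which have counts only. XBP1, EDEM3, TXNDC5, UHRF1, TICRR, DLX5, FGF3, RTN1, SIM1 and PENK were added after their values were seen. The members and lists were chosen with earlier results of these data known. Coordinates and sequences were not used here.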

Additional observations from a re-analysis of the deposited data

Results flagged for a closer look

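For 7 of the 17 transcripts called after 6 h of LY411575 the response differed between 6 h and 24 h by a test of the difference (edgeR, adjusted p below 0.05, response at 6 h minus response at 24 h on the log2 scale). The difference was 2.97 for HSPA5, 2.04 for HSP90B1, 1.30 for DERL3, 1.50 for GADD45G and 2.45 for DLL1. It was -2.55 for PAK1 and -8.44 for ENSGALT00000087079.2, the last of which rests on 0 counts in the LY411575 otocysts at 6 h. With 1 embryo of the 6 h set left out the difference passed in 0 of 3 fits for GADD45G and DERL3 and in 1 of 3 for DLL1.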

How the results depend on the processing

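None of the 17 transcripts changed direction under any alternative that gave it a value. The count of 17 was the same with median-of-ratios size factors, no filter on low counts, a minimum count of 50 and counts rebuilt from TPM. It was 21 with limma-voom and 16 with no replicate block (13 shared, the 4 lost being GADD45G, SDF2L1, CDCA7 and HES4). It moved to 132 with DESeq2 (59 higher and 73 lower, all 17 among them), to 5 with the 12 cultured libraries alone, to 0 with the 6 libraries of the 6 h set alone (1381 at an unadjusted p below 0.05), and to 7 with limma-voom on those 6 libraries, an alternative chosen after seeing the data. Leaving out each embryo in turn gave 9 to 11 calls. 8 transcripts were called in each of these fits, namely HSPA5, HSP90B1, DERL3, the 3 HES5 genes, GADD45G and ENSGALT00000087079.2. The 24 transcripts of the difference between 6 h and 24 h moved to 861 with DESeq2, to 1 with the 12 cultured libraries alone and to between 8 and 10 with an embryo left out, with 23 for no replicate block, 17 for no filter and 33 for the minimum count of 50. The causes were not tested.

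Signs turned only in transcripts that did not pass, each with 1 embryo left out. The log2 fold change ran between -0.05 and 0.16 for CDK1, -0.06 and 0.03 for ENG, -0.04 and 0.23 for LUM, -0.14 and 0.02 for the MYL9 transcript ENSGALT00000074687.2, -0.49 and 0.03 for NRARP, -0.13 and 0.04 for the STMN1 transcript ENSGALT00000087509.2, -0.27 and 0.21 for TUBB2B, -0.06 and 0.13 for NRP1, -0.03 and 0.26 for LMX1A, and -0.06 and 0.07 for CCNB1.

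With 3 embryos, p-values cover these embryos only. The median SE of a log2 fold change was 0.388 over all transcripts. A call took a difference well above 1 SE, and HEY1 at -2.69 ± 0.56 was not called with edgeR. Differences near this SE, and many larger ones, therefore mostly cannot be shown. A transcript or list without a call is not thereby unchanged. The paired log2 ratios varied less within the 6 h set (median SD 0.295) than in the other sets (0.372 to 0.555), whose spread the model shares. Names cover only identifiers that the study lists, and genes under other identifiers were not analysed here.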
